A study of Mus musculus with 10 samples.

Results

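The genes described here are those of meiotic synapsis and recombination, measured in germ cells of mice with and without a GRTH knock-in (KI). They were taken from a list of 34 symbols matched to the gene symbols of the deposited table, and 31 of them were found among 15507 genes listed. Mei4, Mnd1 and Mael1 were not matched by symbol and are not analysed here. RNA-Seq compared 5 wild-type (WT) and 5 homozygous GRTH-KI males at an age of 45 days, and the germ cells of each mouse gave 1 library. The KI allele is a human GRTH gene with an arginine-to-histidine missense mutation, while WT mice carry the mouse gene, Ddx25, which encodes an RNA helicase of the testis. Germ cells were dispersed from whole testis without sorting by stage, so that spermatogonia, spermatocytes and spermatids were measured together.

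In the first meiotic prophase, SPO11 cuts the chromosomes and the broken ends are repaired on the homologous partner. Chromosomes are first organised along axes by cohesins and by SYCP2, SYCP3 and the HORMAD proteins, and homologs are then zipped by the synaptonemal complex, in which SYCP1 filaments meet in a central element made of SYCE1, SYCE2, SYCE3 and TEX12. Some of the repaired breaks mature into crossovers, marked by MSH4-MSH5 and resolved with MLH3. Mouse mutants that lack most of these proteins stop in prophase, whereas the GRTH-KI model is known for an arrest later, at round spermatids.

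Each library held 12722086 to 16422347 reads on genes. Ddx25, the targeted gene, was at 8231 ± 2209 normalized counts in WT and 101.0 ± 91.7 in KI (SD, n = 5 each), and the KI libraries did not overlap the WT libraries. Within KI it stood at 146, 194 and 161 in libraries 1 to 3 and at 2.88 and 1.84 in libraries 4 and 5. The values of KI libraries 4 and 5 were at or under that of 3 reads, 2.88 and 2.76 normalized counts. Reads were aligned to the mouse genome and the KI allele is a human gene, so these counts need not measure its transcript. The libraries numbered 1 to 3 and those numbered 4 and 5 also stood apart from each other in both genotypes, a split that follows the mean read quality in the study's alignment summary. Results that rest on this split are given for each set of libraries. A normalized count is the number of reads of a gene divided by the size factor of its library, and a difference is given as a log2 fold change of KI against WT on log2(normalized count + 1). In these mixed cells, fewer spermatocytes and less RNA per spermatocyte cannot be told apart.

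Of the 31 genes, all of which passed the filter on low values, 1 was differentially expressed between the genotypes, the central element gene Syce2, which was lower in KI. Differential expression required both an adjusted p under 0.05 (limma) and a change of 1.5-fold or more, and over all 15389 genes tested 8.22% were called lower and 6.13% higher in KI. None of the 31 genes was called higher, and edgeR and DESeq2 called none in that direction. At an unadjusted p under 0.05 (limma) 2 of the 31 were higher, beside 2493 of the 15389 genes tested. In the lower direction 4 of the 31 were past that cut-off, beside 2829 of the 15389. By the adjusted p alone, Syce2 and Spo11 were lower in KI, 6.45% of the genes against 13.3% of all genes, and 0 were higher against 9.65%. In 30 of the 31 genes the log2 fold change was within 0.5 in either direction. The share of all genes within that limit was not computed, and the median absolute log2 fold change was 0.22 in the 31 genes and 0.21 over all genes tested. The largest positive value was 0.37, for Prdm9, and it was not past the threshold (adjusted p = 0.246). The median log2 fold change was -0.07, beside 0.03 over all genes tested, and its sign turned with scaling to library totals, where the medians were 0.16 and 0.25. With that scaling 5 of the 31 genes were past the adjusted p in the higher direction and 1 in the lower, beside 32.6% and 7.92% of all genes tested. With scaling to the upper quartile 3 were higher and 1 lower, beside 15.5% and 10.7%.

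A p that misses the threshold does not show that a gene was level, so the interval of each difference was used. In 18 of the 31 genes the 95% interval lay inside a 1.5-fold change in either direction, a share of 58.1%, close to the 54.0% of all genes tested. Syce1, Psmc3ip, Mlh3, Trip13 and Brca2 had the narrowest of these intervals. Beside Syce2, the intervals of 12 genes reached past 1.5-fold and left larger changes possible. Their bounds ran from -0.86 for Meiob to 0.99 for Rec114. The median absolute log2 fold change was 0.22 in the 31 genes and 0.21 over all genes tested, and the median standard errors were 0.148 and 0.144.

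**Figure D1:**
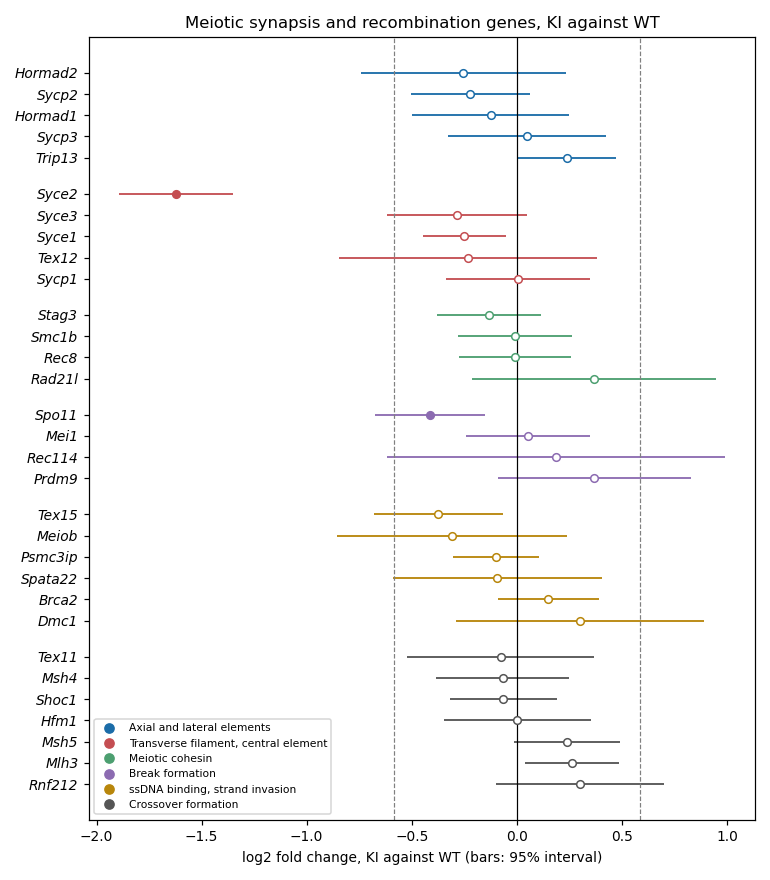
Log2 fold change of KI against WT (x axis) for the 31 genes, ordered by role, from 5 libraries per genotype. Points are limma estimates, bars 95% intervals, filled points have an adjusted p under 0.05, and dashed lines mark 1.5-fold; Syce2 at -1.62 stands apart from the other 30 genes, which lie between -0.41 and 0.37.

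Syce2, a central element protein that assembles with TEX12 and lengthens the synaptonemal complex, was the gene with the largest difference. It lies on chromosome 8 from 84872111 to 84887446 on the plus strand of mm10. In WT libraries 1 to 5 its normalized counts were 2485, 2493, 2507, 1931 and 1767, and in KI libraries 1 to 5 they were 728, 837, 782, 705 and 570.4. The highest KI library, library 2, lay far below the lowest WT library, library 5, and the genotypes did not overlap. The mean was 2237 ± 359 in WT and 725 ± 100.2 in KI, 3.09-fold lower (log2 fold change -1.62, SE 0.127, adjusted p = 3.7e-07, limma). Libraries 1 to 3 gave a log2 fold change of -1.67 and libraries 4 and 5 gave -1.54. A change at least as negative was seen in 241 of all genes tested, or 1.57%. Gcdh runs on the opposite strand across the end of Syce2 without shared exonic bases, and it stood at 44.8 ± 4.52 in WT and 60.0 ± 16.1 in KI.

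The partners of SYCE2 in the transverse filament and central element moved less. Syce1, which joins the SYCP1 filaments to the central element, was the most abundant of them, with 4925, 5200.5, 4970.1, 4227 and 4085 in WT and 3972, 4076, 4006, 4022 and 3537 in KI. All KI libraries lay below all WT libraries. Genotypes without overlap, in either direction, were seen in 2 of the 31 genes and in 17.7% of all genes tested. The log2 fold change of Syce1 was -0.25 (95% interval -0.45 to -0.05, adjusted p = 0.0653), and it passed the threshold with the library number as a block (adjusted p = 0.0188). It was -0.32 in libraries 1 to 3 (adjusted p = 0.0019) and -0.14 in libraries 4 and 5 (adjusted p = 0.59). The interval over all libraries lay inside 1.5-fold. Syce3, a small protein that recruits the other central element proteins, had a log2 fold change of -0.28 (95% interval -0.62 to 0.05), and Tex12 one of -0.23 (95% interval -0.84 to 0.38). Sycp1, the transverse filament itself, was at 2341 in both genotypes, with SDs of 546 in WT and 479 in KI, and its interval of -0.34 to 0.35 lay inside 1.5-fold. The median over these 5 genes was -0.25, and with scaling to library totals it was -0.02.

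**Figure D2:**
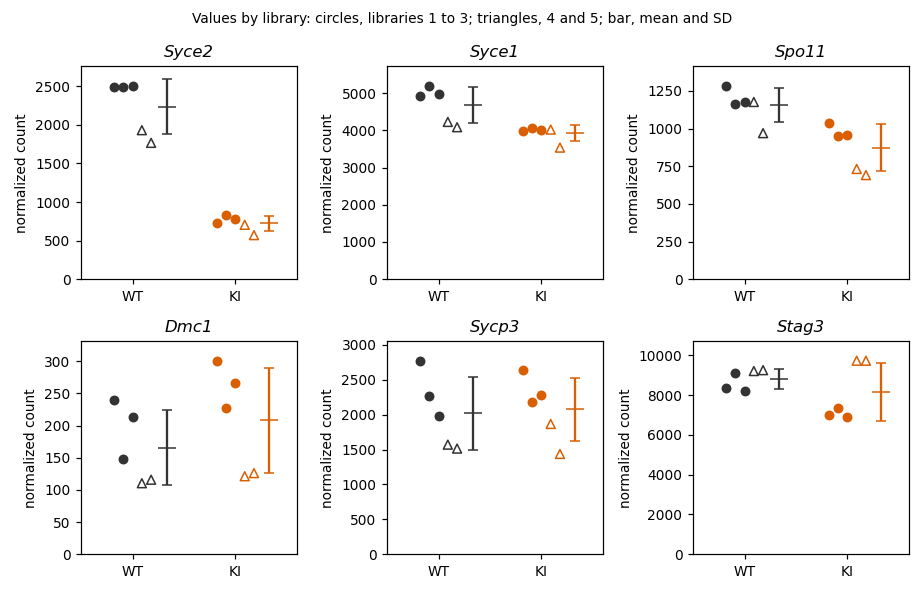
Normalized counts (y axes, from 0) of 6 of the genes in each WT and KI library; circles are libraries 1 to 3, triangles libraries 4 and 5, and bars the mean ± SD of 5 libraries. In Syce2 and Syce1 the genotypes do not overlap, whereas in Dmc1 and Sycp3 the triangles of both genotypes lie below the circles.

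The promoters of the central element genes are shown because Syce2 differed so much more than its partners. RefSeq promoter sequences (GRCm38.p6, the 250 bases before a start and the 50 after it) were matched for 26 of the 31 genes. Short motifs of regulators of meiotic and spermatid genes were searched on both strands and stand in capitals. They are the MYBL1 core (TAACNG), the STRA8-MEIOSIN motif (CNCCTCAG), the E-box CACGTG bound by MGA, the E2F6 motif (TTCCCGC) and the CRE half-site of CREM (TGACG). MYBL1 drives pachytene genes, STRA8 and MEIOSIN the entry into meiosis and CREM spermatid genes, and MGA and E2F6 belong to a complex that silences meiotic genes outside the germ line. Each window is given 5′ to 3′ on the strand of its gene, and the windows of the 2 starts of Syce2 share bases, as do those of Syce3.
Syce2, first start (chr8:84871861-84872160, plus strand): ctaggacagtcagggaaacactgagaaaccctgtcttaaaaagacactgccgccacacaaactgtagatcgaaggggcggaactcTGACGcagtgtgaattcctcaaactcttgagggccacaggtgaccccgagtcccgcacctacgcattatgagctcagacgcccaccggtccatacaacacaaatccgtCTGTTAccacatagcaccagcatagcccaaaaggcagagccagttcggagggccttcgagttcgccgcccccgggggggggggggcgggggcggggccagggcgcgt
Syce2, second start (chr8:84872008-84872307, plus strand): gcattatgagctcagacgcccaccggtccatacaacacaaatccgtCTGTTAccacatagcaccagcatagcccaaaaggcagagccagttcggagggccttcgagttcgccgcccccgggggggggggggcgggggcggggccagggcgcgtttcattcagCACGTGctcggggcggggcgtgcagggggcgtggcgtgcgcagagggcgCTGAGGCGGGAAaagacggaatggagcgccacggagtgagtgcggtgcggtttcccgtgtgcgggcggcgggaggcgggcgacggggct
Syce1 (chr7:140787805-140788104, minus strand): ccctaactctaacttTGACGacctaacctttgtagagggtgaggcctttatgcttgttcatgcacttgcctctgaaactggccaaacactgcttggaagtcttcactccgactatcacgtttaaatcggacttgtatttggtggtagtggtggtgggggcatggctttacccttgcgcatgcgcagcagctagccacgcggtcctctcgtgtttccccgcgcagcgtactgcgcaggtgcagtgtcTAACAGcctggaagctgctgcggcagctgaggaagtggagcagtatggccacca
Tex12 (chr9:50561219-50561518, minus strand): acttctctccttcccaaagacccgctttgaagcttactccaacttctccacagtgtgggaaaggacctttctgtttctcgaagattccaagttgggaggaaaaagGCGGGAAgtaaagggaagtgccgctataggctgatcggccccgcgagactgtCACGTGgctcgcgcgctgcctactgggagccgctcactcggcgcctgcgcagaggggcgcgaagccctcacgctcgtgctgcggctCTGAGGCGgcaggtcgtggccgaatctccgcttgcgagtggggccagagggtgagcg
Syce3, first start (chr15:89410454-89410753, minus strand): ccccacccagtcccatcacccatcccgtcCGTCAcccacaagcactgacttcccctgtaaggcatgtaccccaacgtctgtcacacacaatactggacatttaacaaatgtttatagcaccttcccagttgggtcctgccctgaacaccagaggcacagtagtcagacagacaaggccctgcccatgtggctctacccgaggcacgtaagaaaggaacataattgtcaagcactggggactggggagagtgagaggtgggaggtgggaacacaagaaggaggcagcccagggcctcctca
Syce3, second start (chr15:89410214-89410513, minus strand): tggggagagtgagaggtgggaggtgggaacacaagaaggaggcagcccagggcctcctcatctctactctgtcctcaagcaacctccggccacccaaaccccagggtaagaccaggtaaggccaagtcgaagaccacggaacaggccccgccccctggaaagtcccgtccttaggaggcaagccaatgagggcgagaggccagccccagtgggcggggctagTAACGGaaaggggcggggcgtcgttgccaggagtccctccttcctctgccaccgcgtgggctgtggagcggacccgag

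The second start of Syce2 and the start of Tex12 each held the STRA8-MEIOSIN motif, the E-box and the E2F6 motif, and in Syce2 the first and the last of these overlapped. Syce1 held the MYBL1 core and the CRE half-site, as did the first start of Syce2. Syce3 held the CRE half-site at its first start and the MYBL1 core at its second. The E2F6 motif stood in 41.9% of the 31 promoters that belong to these 26 genes, and in 4.60% of all 32851 promoters. The E-box stood in 29.0% against 7.15%, the STRA8-MEIOSIN motif in 22.6% against 7.94%, the MYBL1 core in 35.5% against 23.3% and the CRE half-site in 22.6% against 20.8%. The full CRE, TGACGTCA, stood in the promoter of Brca2 alone among these 26 genes. These are matches of letters and not measured binding, and the motifs of Syce2 were shared with genes that did not pass the threshold.

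None of the 5 axial and lateral element genes was past the threshold. Sycp2 and Sycp3, which build the lateral element, had log2 fold changes of -0.22 (95% interval -0.50 to 0.06) and 0.05 (95% interval -0.33 to 0.43). Sycp2 passed the adjusted p with the library number as a block (0.0338). Hormad1 and Hormad2, which mark unsynapsed axes, had values of -0.12 and -0.25, and Trip13, the ATPase that removes them, had 0.24 (95% interval 0.01 to 0.47, adjusted p = 0.135). In 4 of the 5 genes the interval lay inside 1.5-fold, Hormad2 being the exception. Sycp3 shares 660 exonic bases, 52.2% of its exons, with Chpt1 on the opposite strand, whose mean was 1616 in WT and 619 in KI, and whether reads were counted by strand is not given in the sources used here.

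The meiotic cohesins, the rings that hold sister chromatids on the axis, were also not past the threshold. Stag3, the meiotic cohesin subunit with the highest mean count of the 31 genes, was at 8338, 9101, 8216, 9216 and 9260.5 in WT and at 7029, 7366, 6885, 9736 and 9735 in KI. The KI libraries 1 to 3 lay below all WT libraries, and the KI libraries 4 and 5 above them. Smc1b was at 4568, 4076, 3215, 2996 and 3645 in WT and at 3745, 3157, 3173, 3853 and 4389.5 in KI, and the genotypes overlapped. Over all libraries the log2 fold changes were -0.13 for Stag3 (95% interval -0.38 to 0.12), -0.01 for Smc1b (95% interval -0.28 to 0.26) and -0.01 for Rec8 (95% interval -0.28 to 0.26), all inside 1.5-fold. Rad21l, an alternative kleisin subunit with few counts (24.2 ± 6.14 in WT, 32.3 ± 10.9 in KI), had 0.37 (95% interval -0.21 to 0.95).

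The estimates for Stag3, Smc1b and Rec8 differed in sign between the 2 sets of libraries, a difference not past the threshold. In libraries 1 to 3 the log2 fold changes of Stag3, Smc1b and Rec8 were -0.27, -0.22 and -0.19, and in libraries 4 and 5 they were 0.08, 0.32 and 0.26. Stag3 was past the threshold in libraries 1 to 3 alone (adjusted p = 0.0117, limma). In libraries 4 and 5 alone the adjusted p were 0.793, 0.215 and 0.260 for Stag3, Smc1b and Rec8. The interaction of genotype with library set had adjusted p of 0.211, 0.178 and 0.117 for these genes. It was past the threshold for 0 of the 31 genes and for 0.247% of all genes tested. In limma, the single tool run for it, 4 of the 31 had an unadjusted p under 0.05. These were the 3 cohesin genes and Hormad2 (0.04 in libraries 1 to 3, -0.69 in 4 and 5). The share of all genes at that unadjusted cut-off was not computed.

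**Figure D3:**
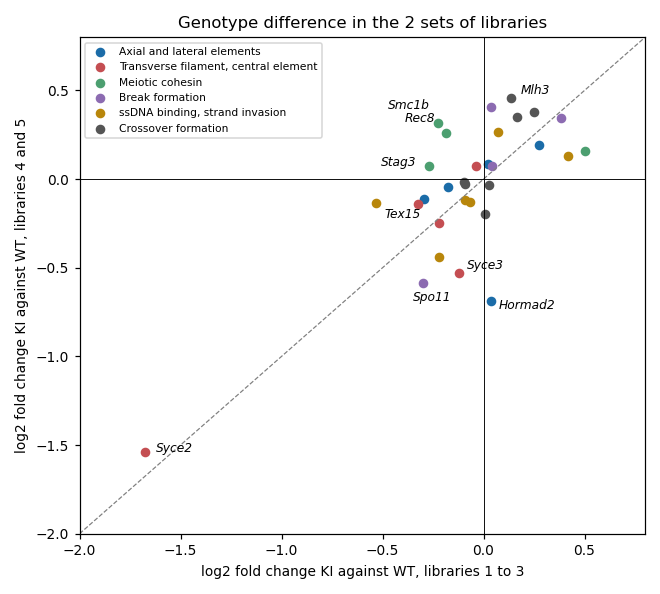
Log2 fold change of KI against WT in libraries 1 to 3 (x axis) and in libraries 4 and 5 (y axis), 1 point per gene, coloured by role; the dashed line marks equal values. Syce2 lies near the line at -1.67 and -1.54, and Stag3, Smc1b and Rec8 lie to the left of 0 on the x axis and above 0 on the y axis.

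Among the genes of break formation, Spo11, the enzyme that makes the breaks, was lower in KI. Its normalized counts were 1285, 1165, 1179, 1177 and 969 in WT and 1039, 949, 959.6, 732 and 691 in KI. Within each pair of the same number KI was the lower, but KI library 1 stood above WT library 5, so that the genotypes overlapped. The means were 1155 ± 114 and 874 ± 153 (log2 fold change -0.41, SE 0.122, adjusted p = 0.0232), and with the library number as a block the adjusted p was 0.00159. The log2 fold change of Spo11 was -0.30 in the first set of libraries and -0.59 in libraries 4 and 5. The call was lost without WT library 1 (adjusted p = 0.0636), without KI library 4 (0.0566), with scaling to library totals (-0.18, adjusted p = 0.283) and with scaling to the upper quartile (-0.32, adjusted p = 0.0685). Prdm9, the histone methyltransferase that places the breaks, had 0.37 (95% interval -0.09 to 0.83), and Mei1 and Rec114, which break formation needs, had 0.05 (95% interval -0.24 to 0.35) and 0.19 (95% interval -0.62 to 0.99). Rec114 was counted at 20.9 ± 10.7 in WT and 21.2 ± 4.30 in KI, and it shares 26.9% of its exonic bases with Nptn on the opposite strand.

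The genes that coat single strands and carry out strand invasion gave values in both directions, and none was past the threshold. Dmc1, the meiotic recombinase, had 0.30 (95% interval -0.29 to 0.89, adjusted p = 0.487). Its normalized counts were 239.5, 148, 214, 110.3 and 116 in WT and 301, 227, 266, 121 and 126 in KI, higher in KI in each pair of the same number, and with the library number as a block it passed the threshold (adjusted p = 0.0483). In both genotypes libraries 4 and 5 held the lowest counts. Tex15, which recombinase loading needs, had -0.37 (95% interval -0.68 to -0.07, adjusted p = 0.0772), and with the block it passed (adjusted p = 0.00828). The log2 fold change of Tex15 was -0.53 in libraries 1 to 3, against -0.14 in libraries 4 and 5. Meiob and Spata22, partners on single-stranded DNA, had -0.31 (95% interval -0.86 to 0.24) and -0.09 (95% interval -0.59 to 0.40). Psmc3ip, a helper of DMC1, had -0.10 and Brca2, which loads recombinases, 0.15, and both intervals lay inside 1.5-fold. A readthrough transcript, Gm49340, holds 80.5% of the exonic bases of Spata22 on the same strand, and Mlx shares 21.2% of those of Psmc3ip on the opposite strand, so that these values are uncertain.

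With the library number as a block, 5 of the 31 genes were past the adjusted p in the lower direction (Syce2, Spo11, Syce1, Sycp2 and Tex15), beside 17.4% of all genes tested. Dmc1 was the 1 gene past it in the higher direction, beside 14.7% of all genes. Of the 5 lower genes, Syce2 changed by more than 1.5-fold and the others by less. With the library set as a term, Mlh3 was the 1 gene past it in the higher direction and Syce2, Spo11, Syce1 and Tex15 in the lower, beside 14.2% and 17.2% of all genes. In libraries 1 to 3 alone 6 genes were lower, those 4 with Sycp2 and Stag3, beside 17.9% of all genes. Whether equal library numbers mark pairs was not established, so calls with the library number as a block rest on that assumption.

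None of the 7 genes of crossover formation was past the threshold, and in 6 of them the interval lay inside 1.5-fold. Msh4, Msh5 and Shoc1, which stabilise crossover intermediates, had -0.07, 0.24 and -0.07. Hfm1, a meiotic helicase, had 0.00 (95% interval -0.35 to 0.35), and the X-linked Tex11 had -0.08 (95% interval -0.52 to 0.37). Mlh3, an endonuclease subunit that resolves crossovers, had 0.26 (95% interval 0.04 to 0.49, adjusted p = 0.0834), and it passed the threshold with the library set as a term (adjusted p = 0.0445). Rnf212, a ligase that selects crossover sites, had 0.30 (95% interval -0.10 to 0.70) at 32.7 ± 6.0 counts in WT and 40.2 ± 5.02 in KI, the interval not inside 1.5-fold. Trip13, Brca2, Msh5, Mlh3 and Rnf212 were the 5 genes past the adjusted p in the higher direction with scaling to library totals, with log2 fold changes of 0.38 to 0.52 where the median of all genes was 0.25.

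The split by library number separated more of these genes than the genotype did, which left 2 of the 31 without overlap. In 16 of the 31 genes, or 51.6%, libraries 4 and 5 lay below libraries 1 to 3 without overlap in both genotypes, against 9.91% of all genes tested. In 3 genes, Rec8, Stag3 and Psmc3ip, they lay above in both, a share of 9.68% beside 8.08% of all genes tested. The median log2 difference of libraries 4 and 5 against 1 to 3 was -0.39 in WT and -0.37 in KI, and over all genes it was -0.01 and -0.02. Dmc1 showed -0.79 in WT and -1.08 in KI, Tex12 -0.92 and -0.94, and Spata22 -0.77 and -0.83. By role, 5 of 7 crossover genes, 4 of 5 transverse filament and central element genes, 3 of 5 axial genes, 3 of 6 strand invasion genes, 1 of 4 cohesins and 0 of 4 break formation genes were lower in both genotypes. The mean score of the meiotic entry markers, which include Stra8, Meioc and Dazl, moved the same way, from -0.14 to 0.23 in WT libraries 1 to 3 to -0.23 and -0.16 in 4 and 5, and from 0.11 to 0.45 in KI libraries 1 to 3 to -0.29 and -0.40. The spermatid scores were also lower in libraries 4 and 5 of both genotypes. The round spermatid score ran from 0.20 to 0.34 in WT libraries 1 to 3 and stood at 0.15 and 0.06 in 4 and 5, and in KI it ran from -0.05 to -0.02 and stood at -0.31 and -0.62. The elongating spermatid score ran from 1.22 to 1.48 and stood at 0.82 and 0.80 in WT, and in KI it ran from -1.05 to -0.88 and stood at -1.17 and -1.72. The lower levels in libraries 4 and 5 were therefore not particular to the meiotic lists, and not all meiotic lists shared them. The meiotic division score ran from -0.14 to -0.04 in KI libraries 1 to 3 and stood at 0.22 and 0.16 in 4 and 5. In WT its libraries 4 and 5 lay within the range of libraries 1 to 3. The part of read quality or of cell makeup in this split was not tested.

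**Figure D4:**
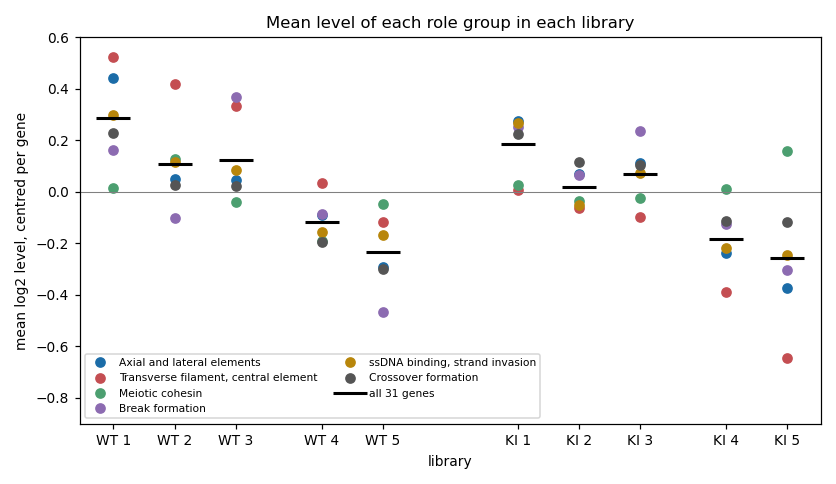
Mean of the log2 levels of each role group in each library, centred per gene (y axis), with black bars for the mean of all 31 genes; WT libraries are on the left and KI libraries on the right. The black bars lie above 0 in libraries 1 to 3 and below 0 in libraries 4 and 5 of both genotypes, and the transverse filament and central element group, which holds Syce2, is lower in every KI library than in the WT library of the same number.

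The levels of the genes, per kilobase of exon, spanned more than their differences. In WT, Syce1 stood highest at 3206 ± 338 normalized counts per kb (SD, n = 5), followed by Sycp3 (1598 ± 412), Stag3 (1540 ± 88.4) and Syce2 (1136 ± 182). The spreads of Sycp3 and Stag3 overlapped. Syce2 in KI stood at 368 ± 50.9 per kb, next to Hormad1 in KI (436 ± 92.9), and these spreads overlapped. At the other end, Rec114, Rad21l and Prdm9 stood at 16.4 ± 8.41, 14.6 ± 3.70 and 14.2 ± 4.04 per kb in WT, and their order was within their spread.

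Other genes of meiosis, a list of 107 of which 97 were tested, also had small differences. Their median log2 fold change was 0.05. By the adjusted p 3 were higher and 2 lower, beside 9.65% and 13.3% of all genes tested. Rnf212b, a relative of Rnf212 in crossover formation, was the 1 gene of them past 1.5-fold, at 60.0 ± 14.1 in WT and 35.7 ± 7.49 in KI (log2 fold change -0.73, SE 0.198, adjusted p = 0.0145), and the genotypes did not overlap. Named after their values were seen, the others were Ccdc36, a partner of the break machinery (0.40, adjusted p = 0.00379), Rad50 of the end-resection complex (0.38, adjusted p = 0.0303), the helicase gene Mcm9 (0.38, adjusted p = 0.0105) and Rmi1 of the dissolution complex (-0.30, adjusted p = 0.0271). With the block 8 were higher and 4 lower, beside 14.7% and 17.4% of all genes tested. In 81 of the 97 the interval lay inside 1.5-fold, beside 18 of the 31 genes and 54.0% of all genes tested. Of 17 general cohesin genes and regulators 0 were past the threshold by limma in either direction, and 2 were higher with the block. At an unadjusted p under 0.05, 3 of the 17 were higher and 0 lower, beside 2493 and 2829 of the 15389 genes tested.

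Marker lists of other stages place the 31 genes along spermatogenesis. Of 12 spermatogonial markers 1 was higher (Lin28a) and 1 lower (Gfra1), or 3 and 1 with the block, with a median log2 fold change of 0.02 (0.15 in libraries 1 to 3, -0.09 in 4 and 5), and Id4 stood at 675 ± 63.6 in WT and 686 ± 65.3 in KI. Of 7 meiotic entry markers 0 were past the adjusted p in either direction, and 0 had an unadjusted p under 0.05. Meioc stood at 2839 ± 426 in WT and 2845 ± 328 in KI. Of 17 pachytene to diplotene markers 2 were higher (Pou5f2, Hist1h1t) and 3 lower (Pgk2, Calr3, Cdc25c), or 2 and 5 with the block, with a median of -0.10. Pgk2, a glycolytic enzyme gene transcribed from meiosis onward and also present in spermatids, had the largest of these differences, at 22625 ± 4437 in WT and 11015 ± 3042 in KI (-1.07, adjusted p = 0.00105). Of 18 genes of the meiotic divisions 1 was higher (Aurkb) and 2 lower (Cdc25c, Ccnb1), or 3 and 2 with the block, with a median of 0.08 (-0.03 in libraries 1 to 3, 0.28 in 4 and 5).

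After meiosis the differences were larger. Of 15 round spermatid markers 8 were lower and 0 higher in KI by the adjusted p, with a median of -0.41 (-0.19 with scaling to library totals). Of these 8, 2 were also past 1.5-fold and so differentially expressed. The 8 included Tssk1 (-0.41, adjusted p = 0.022, limma) and Dpy19l2 (-0.33, adjusted p = 0.0173, limma), which changed by less than 1.5-fold. All 15 elongating spermatid markers were lower, with a median of -2.27. Prm2, a protamine that replaces histones, stood at 89159 ± 25520 in WT and 9282 ± 3127 in KI (-3.30, adjusted p = 3.25e-07). Syce2, with -1.62, lay inside the range of these 15 markers, -3.30 to -0.89. It lay below the ranges of the round spermatid markers (-1.23 to -0.05) and the pachytene to diplotene markers (-1.07 to 0.54). It was also below that of the meiotic entry markers, -0.25 to 0.28. These lists were written with earlier results of these data known, so their directions are a description of where the 31 genes lie.

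**Figure D5:**
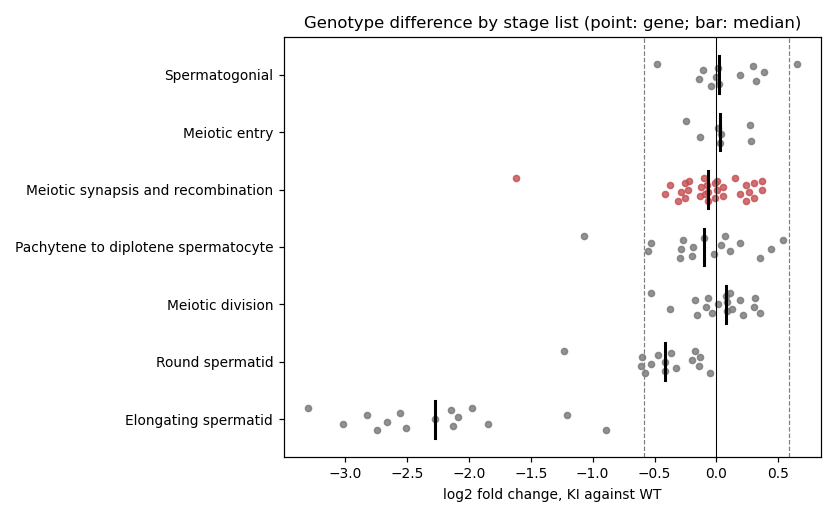
Log2 fold change of KI against WT (x axis) for the genes of each stage list, 1 point per gene, with the 31 synapsis and recombination genes in red; thick bars are medians and dashed lines mark 1.5-fold. The medians of the 4 lists from spermatogonia to diplotene lie between -0.10 and 0.03, those of round and elongating spermatid markers at -0.41 and -2.27, and Syce2 is the red point at -1.62.

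Markers of somatic cells were present in the germ cell libraries of both genotypes, and none of the marker genes listed in the table was at 0 in any library. Of 7 Leydig cell markers 4 were higher in KI (Insl3, Cyp17a1, Cyp11a1 and Hsd17b3), or all 7 with the block, and their summed level ran from 10290 to 18066 normalized counts in WT and from 14779 to 25692 in KI. Of 9 macrophage markers 5 were higher (C1qc, C1qa, Cd68, Csf1r and Lyz2), with sums of 777 to 1031 in WT and 1168 to 1587 in KI. Of 9 Sertoli cell markers 1 was higher (Gata4), with sums of 7102 to 11748 and 7559 to 12491, and the median of these markers turned from 0.36 in libraries 1 to 3 to -0.34 in the other set. Of 4 peritubular myoid markers tested 2 were higher (Acta2 and Des). Over all 5 listed myoid markers, tested or not, the sums were 120 to 208 in WT and 191 to 236 in KI. No marker of these 4 lists was past the adjusted p in the lower direction. The part of these cells in the differences of the 31 genes was not tested.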

How the data were processed

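Per the labels and the study's methods, the authors aligned adapter-trimmed reads to mm10 with STAR, counted RefSeq genes in Partek and divided the counts by DESeq2 size factors before depositing them, so the deposited values are a normalized signal. In each library 100% of values under 5000 reads were whole multiples of 1 read, within 0.1 read. The number of value columns without a library was 0. The authors' own fold change columns were not used.

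Genes were kept by filterByExpr of edgeR (4.0.16), leaving 15389 of 15507, and tested by limma (3.58.1, R 4.3.3) with a variance trend on log2(value + 1), with Benjamini-Hochberg adjustment over all of them. This is the test planned for normalized values. Called genes had an adjusted p under 0.05, and for differential expression a fold of at least 1.5. edgeR, DESeq2 (1.42.0), other scalings, filters and pseudocounts, a block, the library sets and leaving out each library were alternatives. The scripts were tested on simulated data. Scores are means of centred log2 values over a list.

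The labels number the libraries 1 to 5 in each genotype. After removing genotype means, same-numbered libraries correlated with r of 0.306, 0.105, 0.280, 0.216 and 0.462. Libraries of different numbers were not correlated. The split by library number, seen in both genotypes, could give positive r without pairing, so these values cannot show that equal numbers mark pairs. The block treats equal numbers as pairs by assumption. Replicates differed by 2.67 to 46.4 chi-square per degree of freedom, so none duplicated another. A value of 0 reads allows up to 3 reads, 2.61 to 3.62 normalized counts, and counting error only is covered by that limit. Whether mice were littermates was not stated, and p-values measure the spread between these libraries.

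The genes and all lists were chosen with earlier results of these data known. By rule, every gene was named with its change or in a count. Library values were given by rule for genes past the adjusted p and the 3 with the highest mean. The rule also named the other meiotic genes called past 1.5-fold and, of each stage list, at most the 3 most abundant markers. Library values of Dmc1 and the other names were added after their values were seen. Exon overlaps and lengths came from GENCODE, promoters from RefSeq (GRCm38.p6). The end coordinate is the deposited stop less 1, since the stop lay 1 base past the RefSeq end in 6953 of 9683 genes with the same start.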

Additional observations from a re-analysis of the deposited data

Results flagged for a closer look

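A library stood far from the other 4 of its genotype in 2 of the 31 genes. In Syce1 it was KI library 5, at 3537 normalized counts, with the nearest KI library at 3972, a gap of 0.806 of the range of the group. In Psmc3ip it was KI library 4, at 1552, with the nearest at 1281, a gap of 0.831 of the range. These 2 were among 62 groups looked at, and with so many groups some such gaps can arise by chance. How often chance gives them was not computed. Without KI library 5 the log2 fold change of Syce1 was -0.21 (adjusted p = 0.124), and without KI library 4 that of Psmc3ip was -0.16 (adjusted p = 0.232).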

How the results depend on the processing

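The 1 differentially expressed gene, Syce2, was past both thresholds under all 23 alternatives, with log2 fold changes of -1.70 to -1.39. Of 708 values of single genes under the alternatives, 680 kept their side of the threshold, 24 gained a call, 4 lost one (all Spo11) and 0 reversed a call, and 19 of the 31 genes were never past the adjusted p. Among 161 counts, 133 stayed within 1.5 times of the main value. The 0 genes higher and 2 lower by adjusted p became 5 and 1 with library totals, 3 and 1 with the upper quartile, 1 and 5 with the replicate block that pairs the libraries, and 1 and 4 with the library set as a term. The count lower was 6 in libraries 1 to 3 alone, 1 at an adjusted p under 0.01, and 1 to 3 when each library was left out in turn, with 1 without WT library 1 or KI library 4, where Spo11 lost its call. In libraries 4 and 5 alone 2 genes, Syce2 and Spo11, were differentially expressed and lower. The other meiotic genes, 3 higher and 2 lower, became 35 and 0 with library totals, 12 and 1 with the upper quartile, 8 and 4 with the replicate block and 6 and 4 in libraries 1 to 3. With the library set as a term 6 were higher. The count lower was 1 in libraries 4 and 5, 1 when genes under a mean of 100 normalized counts were dropped, and 1 to 2 with a library left out, with 1 without WT library 1 or 2 or KI library 2 or 3. Scaling to library totals moves the median of all genes from 0.03 to 0.25 by its construction; the cause of the other changes was not tested. With libraries 4 and 5 alone, 2 libraries per genotype limit the precision.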
